A study of Danio rerio with 6 samples.

Results

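The genes gad1b, gad2, dlx1a and dlx2a mark GABAergic neurons, the main inhibitory neurons of the brain. They were followed here in zebrafish embryos injected with a morpholino against setb, named MO1, or with a control morpholino. The 4 genes were taken by symbol, as probe sets to which the platform annotation gives exactly 1 gene, and each had 1 probe set, so that they made up 4 of 15726 probe sets and 4 of 11304 genes. They were chosen by their lower levels in this same comparison, setb MO1 against control, and their differences are therefore given as a description, without a test.

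GABA is made from glutamate by the glutamate decarboxylases, which gad1b and gad2 encode, is loaded into synaptic vesicles, acts on GABA receptors and is cleared by transporters. The homeobox transcription factors of dlx1a and dlx2a lie upstream of this machinery in the forebrain, where Dlx proteins of mouse and zebrafish are known to promote the GABAergic fate and the expression of glutamate decarboxylase genes. The same dlx genes are also active outside the brain, in the neural crest cells of the pharyngeal arches. GABAergic neurons of the midbrain, hindbrain, spinal cord and retina form under other transcription factors, such as those of the tal, ptf1 and lhx families.

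The setb MO1 group held 3 samples and the control morpholino group 3 samples, each of total RNA from embryos 48 h after fertilization, hybridised to 1 Affymetrix array with biotin-labelled target. Both groups had been injected at the one-cell stage, and morpholinos are antisense oligonucleotides that stop a bound transcript from being translated or spliced. The gene setb is a zebrafish counterpart of human SET, whose product binds histones and restrains a protein phosphatase. Embryos had been scored as normal-like, mild or moderate, and the labels give neither the class nor the number of embryos in a sample, nor strain, clutch or dose. Each group had 1 morpholino, so that effects of the target and of that oligonucleotide cannot be told apart, and p-values reflect the spread among these 6 samples alone, which could be of technical origin.

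Levels are log2 intensities after RMA. Array medians lay between 9.47 and 9.49, and arrays correlated at 0.964 to 0.990 within a group and at 0.884 to 0.930 between groups over probe sets, which do not count as independent replicates. Precision is limited by the number of arrays. Of the 11304 genes, 44.7% differed between the groups in limma (adjusted p under 0.05 over all genes), 23.9% with higher and 20.8% with lower levels in setb MO1 embryos. The setb transcript itself was at 12.60 to 12.69 in setb MO1 and 12.38 to 12.51 in control arrays, which does not check the labels, since the labels do not say whether MO1 acts on translation or splicing. Every probe set of the table reached 8.45 in at least 1 array, and dimmer ones had been removed. A gene whose level in 1 group lay well under this value was in the table only if its level in the other group was higher, so that such genes are skewed towards a difference.

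Both glutamate decarboxylase genes had lower levels in setb MO1 embryos, gad2 by more than gad1b, and of the pair of Dlx genes dlx1a was lower by more than dlx2a. The size ran in the order gad2, dlx1a, gad1b, dlx2a, with setb MO1 levels at 33.5%, 48.2%, 54.8% and 74.1% of the control level on the linear scale. In these RNA samples of whole embryos, fewer neurons of a type and less RNA in each neuron cannot be told apart.

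The gene gad2 (probe set 13148867) encodes the decarboxylase form found mainly at synapses in mammals. Its log2 level was 8.15, 7.96 and 8.10 in setb MO1 arrays, against 9.64, 9.77 and 9.54 in control arrays. The groups were far apart, with a gap of 1.38 between the nearest arrays, 5.99 times the wider of the group ranges. The difference was −1.58 ± 0.09 (SE, n = 3 and 3), and 43 of the 11304 genes, gad2 included, had a difference at least as low.

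The gene gad1b (probe set 13211260) encodes the form that makes most of the GABA in the cell body in mammals. Its log2 level was 7.86, 7.80 and 7.92 in setb MO1 arrays, against 8.65, 8.76 and 8.77 in control arrays, and the groups did not overlap. The difference was −0.87 ± 0.07 (SE, n = 3 and 3), and 326 genes had one at least as low. The setb MO1 levels of both genes were dim. They averaged 7.86 ± 0.06 for gad1b and 8.07 ± 0.10 for gad2 (SD, n = 3 each), at the percentiles 1.21 and 2.65 of genes in the table. All 6 of these values lay under 8.45, so that gad1b and gad2 were in the table through their control arrays alone. At such levels background can make up part of the signal and the fold changes may be understated. The choice of the genes by this comparison and their passage through control arrays alone can overstate them. The size of either effect was not tested.

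The gene dlx1a (probe set 13257672) had the narrowest group ranges of the 4 genes. Its log2 level was 9.40, 9.43 and 9.52 in setb MO1 arrays, against 10.46, 10.51 and 10.54 in control arrays, a difference of −1.05 ± 0.06 (SE, n = 3 and 3). The gap between the nearest arrays of the groups was 8.05 times the wider group range. The gene dlx2a (probe set 13264123) was at 10.38, 10.53 and 10.52 in setb MO1 arrays, against 10.91, 10.83 and 10.99 in control arrays. Its groups were the closest of the 4 genes, with a gap of 0.30 and a difference of −0.43 ± 0.07 (SE, n = 3 and 3), and 1312 genes had one at least as low. Both dlx genes stayed above 8.45 in all 6 arrays.

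**Figure D1:**
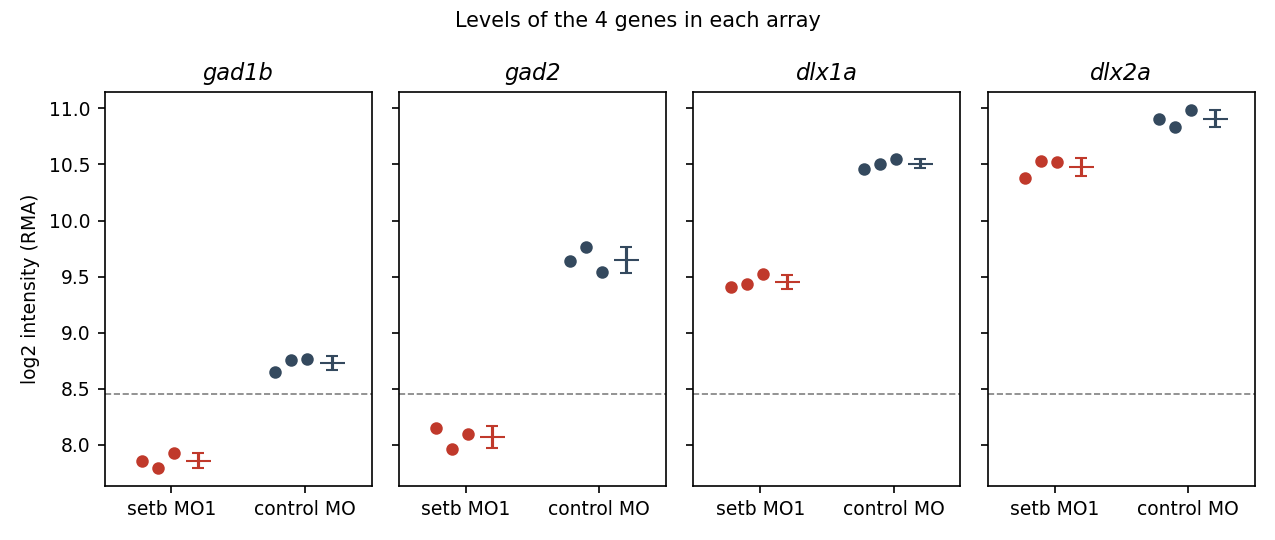
Log2 intensity of gad1b, gad2, dlx1a and dlx2a in each array (points; setb MO1 left in red, control right in dark blue), with the mean and SD of 3 arrays beside them. The dashed line is 8.45, the level that every probe set reached in at least 1 array: the setb MO1 arrays lie under it for gad1b and gad2 and above it for dlx1a and dlx2a.

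All 4 genes had setb MO1 arrays wholly under the control arrays, as did 27.4% of all genes, and no weight is put on that count since this comparison chose the genes. Within a group, no array was the highest or the lowest for all 4 genes, though part of them agreed. In the setb MO1 group gad2 was lowest in replicate 2, as was gad1b, whereas dlx1a and dlx2a were lowest in replicate 1. Replicate 3 of the setb MO1 group was highest for both gad1b and dlx1a. In the control group replicate 2 was highest for gad2 and lowest for dlx2a, at 0.12 above and 0.08 below the group means. Control replicate 3 was highest for gad1b, dlx1a and dlx2a, at 0.04, 0.04 and 0.08 above the group means, and lowest for gad2.

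By the root mean square difference of log2 levels over the 6 arrays, after subtraction of each gene's own mean, the 4 genes were not closest to each other. The closest pair was gad1b and dlx1a at 0.097, and dlx1a ranked 91 among the genes nearest to gad1b. The 3 genes nearest to gad1b were ebf3a (0.037), thsd7aa (0.043) and syn2a (0.048), a synapsin gene of presynaptic vesicles. Nearest to gad2 were bcl11ba (0.064), a zinc finger gene whose mouse counterpart marks striatal projection neurons, ZNF219 (0.093) and RAI1 (0.097). The genes apoea (0.043), an apolipoprotein E gene, tox2 (0.056) and cbfa2t3 (0.058) were nearest to dlx1a. For dlx2a they were rnf144ab (0.023), thap4 (0.031) and helt (0.036), which encodes a midbrain factor required for GABAergic fate in mouse. These are distances over 6 arrays in groups that stand apart, and a similar group difference is enough for a small distance.

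The glutamate decarboxylase family had further members on the arrays. The gene gad1a, a duplicate of gad1b, was at 7.42, 7.45 and 7.85 in setb MO1 arrays, against 8.55, 8.49 and 8.52 in control arrays. It fell by 0.95 ± 0.12 on the log2 scale (SE, limma adjusted p = 0.000816), with groups that did not overlap, and like gad1b it reached 8.45 in control arrays only. The gene gad3 moved the other way. It was at 8.99, 9.03 and 9.59 in setb MO1 arrays, against 8.02, 8.31 and 8.46 in control arrays, and rose by 0.94 ± 0.18 (adjusted p = 0.00501). Lower levels were thus seen for gad2, gad1b and gad1a, and a higher level for gad3. The first 3 reached 8.45 in control arrays only, which skews them towards a lower level, and gad2 and gad1b were chosen by this comparison. Among control arrays gad3 reached 8.45 in replicate 3 alone, at 8.46. No conclusion on the family is drawn from these genes.

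Of 21 measured genes for the rest of GABA metabolism, gad1a and gad3 included, 5 fell and 5 rose, 23.8% each way, close to the 20.8% and 23.9% of all genes. The median difference was 0.01, against 0.02 over all genes. The list also holds genes of glutamine and glutamate supply and of taurine and creatine transport, so that these values are not those of GABA synthesis and transport alone. This list and those below were drawn up with earlier results of these data known, so that their shares are a description and not a test of the lists. The vesicular GABA transporter gene slc32a1 was not analysed here. The GABA transporter gene slc6a1a was at 8.13, 8.14 and 8.02 in setb MO1 arrays, against 9.35, 9.40 and 9.15 in control arrays, and fell by 1.2 ± 0.08 (adjusted p = 0.000174). A further GABA transporter gene, slc6a11b, fell by 0.88 ± 0.09 (adjusted p = 0.000423), with setb MO1 values of 8.95 to 9.12 and control values of 9.80 to 10.08. Its duplicate slc6a11a, named after its values were seen, differed by 0.35 ± 0.13 and did not pass (adjusted p = 0.0679). Neither did the GABA transporter gene slc6a13, likewise named (0.01 ± 0.12, adjusted p = 0.935). The amino acid transporter gene slc38a3a, which supplies glutamine, fell by 1.29 ± 0.12 (adjusted p = 0.000314). The taurine transporter gene slc6a6a fell by 0.50 ± 0.14 (adjusted p = 0.0247).

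Besides gad3, the genes that rose were abat, the GABA transaminase gene (0.29 ± 0.10, adjusted p = 0.0428), glud1a, a glutamate dehydrogenase gene (0.28 ± 0.07), slc38a5a, a glutamine transporter gene (0.26 ± 0.07), and glulb, a glutamine synthetase gene (0.24 ± 0.08). The calls on abat, glulb, slc38a5a and slc6a6a were lost in at least 3 of the alternatives each, with adjusted p up to 0.126, 0.10, 0.0625 and 0.0671. Among the genes that fell, slc6a1a, gad1a and slc6a6a reached 8.45 in control arrays only. Of the 18 genes that reached it in both groups, 2 fell, slc38a3a and slc6a11b (11.1%), and 5 rose. Of all 10096 such genes 18.6% fell and 2290 rose. Leaving out setb MO1 replicate 3 or control replicate 2 brought the number that rose to 2, and leaving out setb MO1 replicate 2 or control replicate 1 brought it to 3. Over all genes the number that rose was 2702 with all arrays, and 2148, 1833, 2068 and 2697 in these settings, in that order.

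**Figure D2:**
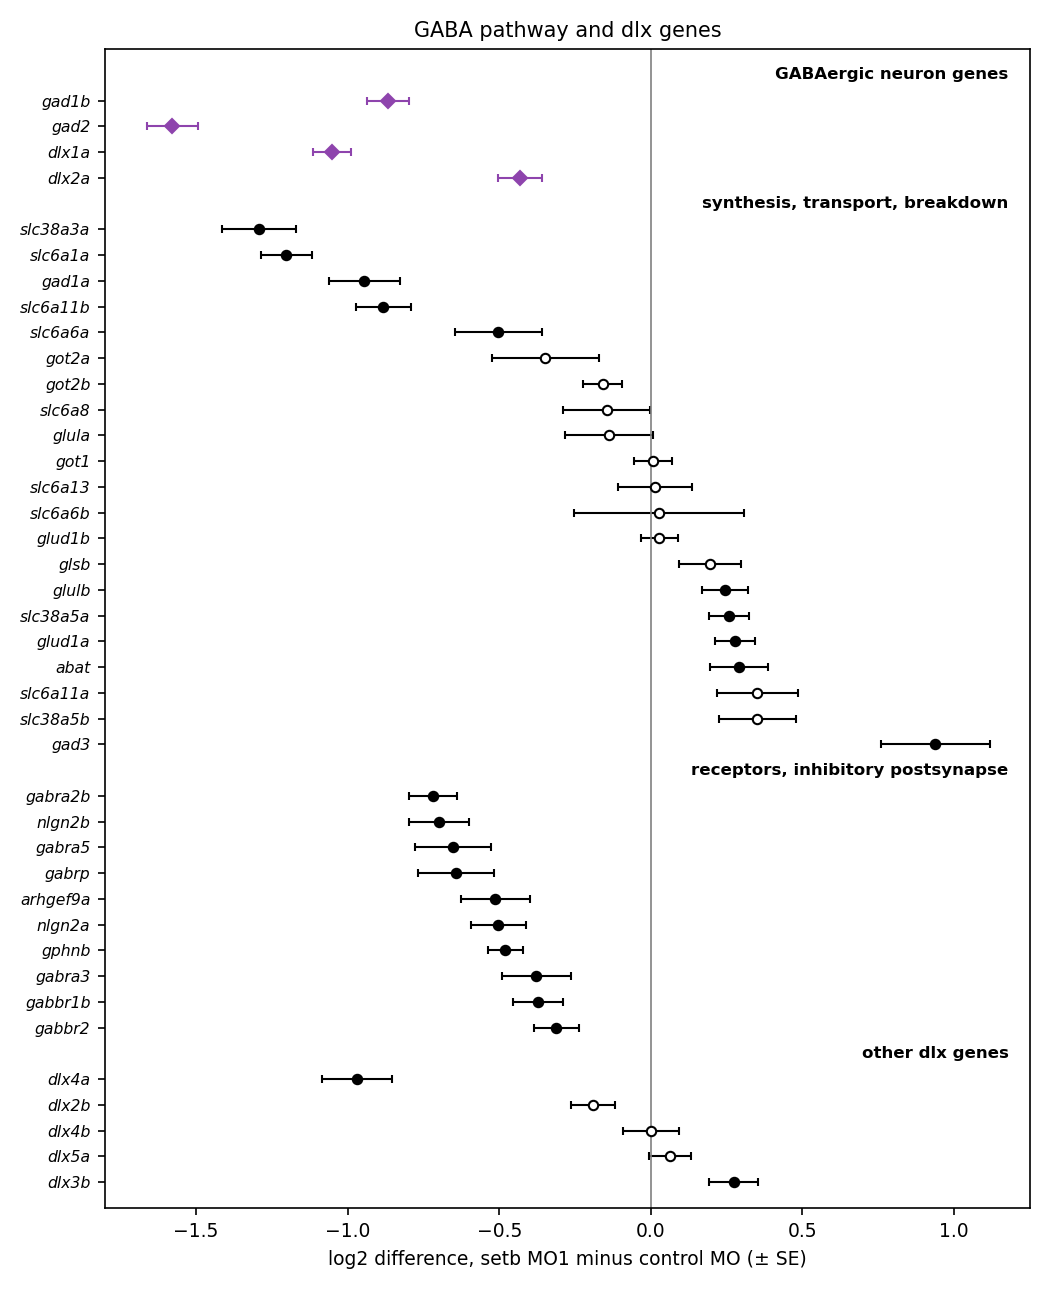
Log2 difference, setb MO1 minus control, with SE (n = 3 and 3). Diamonds are gad1b, gad2, dlx1a and dlx2a (no test). Below them are 21 genes of GABA synthesis, transport and breakdown, with genes of glutamine and glutamate supply and taurine and creatine transport among them. Then follow 10 genes of GABA receptors and the inhibitory postsynapse, and 5 other dlx genes. Filled circles passed limma at an adjusted p of 0.05 and open circles did not. The 10 receptor and postsynapse genes lie between −0.72 and −0.31, while the 21 genes above them lie on both sides of 0.

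Genes of the receiving side were lower throughout. All 10 measured genes of GABA receptors and the inhibitory postsynapse fell, out of 34 listed, against 20.8% of all genes, with a median difference of −0.51. The α2 subunit gene gabra2b of the GABA-A receptor was at 8.75, 8.64 and 8.75 in setb MO1 arrays, against 9.54, 9.46 and 9.30 in control arrays, and fell by 0.72 ± 0.08 (limma adjusted p = 0.000531). The subunit genes gabra5 (−0.65 ± 0.13), gabrp (−0.64 ± 0.12) and gabra3 (−0.38 ± 0.11) fell as well. So did gabbr1b (−0.37 ± 0.08) and gabbr2 (−0.31 ± 0.08), which encode the subunits of the GABA-B receptor.

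The scaffold of inhibitory synapses was represented by gphnb, a gephyrin gene, which was at 8.46, 8.48 and 8.52 in setb MO1 arrays, against 8.96, 8.99 and 8.96 in control arrays. It fell by 0.48 ± 0.06 (adjusted p = 0.000728), with the smallest SE of the list. The neuroligin genes nlgn2b and nlgn2a, for adhesion proteins of inhibitory synapses, fell by 0.70 ± 0.10 and 0.50 ± 0.09, and the collybistin gene arhgef9a by 0.51 ± 0.11. These genes were dim. The genes gabra5, gabrp, gabbr2, nlgn2b and arhgef9a reached 8.45 in control arrays only, which leaves 5 of 5 that fell among genes that reached it in both groups, against 18.6% of all such genes. The calls on gabra3 and gabbr2 did not stand in each alternative, with adjusted p up to 0.111 and 0.0595.

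The other dlx genes differed in both directions. Of 5 measured, 1 fell, 1 rose and 3 did not pass, 20.0% each way, close to the 20.8% lower and 23.9% higher of all genes, with a median difference of −7.13e-05. The gene dlx4a was at 8.72, 8.75 and 8.35 in setb MO1 arrays, against 9.66, 9.55 and 9.52 in control arrays, and fell by 0.97 ± 0.11 (adjusted p = 0.000685), a difference between those of dlx1a and gad1b. The gene dlx3b, known from the otic and olfactory placodes and the arches, rose by 0.27 ± 0.08 (adjusted p = 0.0273). That call was lost without setb MO1 replicate 2 (0.0932) or 3 (0.0782) and without control replicate 2 (0.108) or 3 (0.0611). The gene dlx5a, active in the forebrain together with dlx1a and dlx2a, was at 11.74, 11.75 and 11.89 in setb MO1 arrays, against 11.69, 11.72 and 11.78 in control arrays. Its difference of 0.06 ± 0.07 did not pass (adjusted p = 0.479). Neither did those of dlx2b (−0.19 ± 0.07, adjusted p = 0.0701) and dlx4b (−7.13e-05 ± 0.09, adjusted p = 0.999). The gene dlx6a was not analysed here.

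The genes dlx1a and dlx2a are neighbours in the GRCz12tu gene table, which was used for gene order only. Their closest measured neighbours on either side, named after their values were seen, both rose. The gene hat1, for a histone acetyltransferase, rose by 0.27 ± 0.06 (adjusted p = 0.0103), and itga6a, for an integrin subunit, rose by 0.27 ± 0.06 (adjusted p = 0.0128). Beyond hat1, dync1i2a differed by 0.02 ± 0.08 (adjusted p = 0.866) and pdk1 fell by 0.29 ± 0.08 (adjusted p = 0.0199). Among the 3 genes on each side of gad1b, gad2 and the dlx pair, 8 of 18 were measured, of which 5 rose, 1 fell and 2 did not pass, where 23.9% of all genes rose and 20.8% fell. The genes ssb (0.72 ± 0.06) and tlk1b (0.27 ± 0.08) near gad1b and apbb1ip (0.23 ± 0.08) near gad2 were among those that rose.

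**Figure D3:**
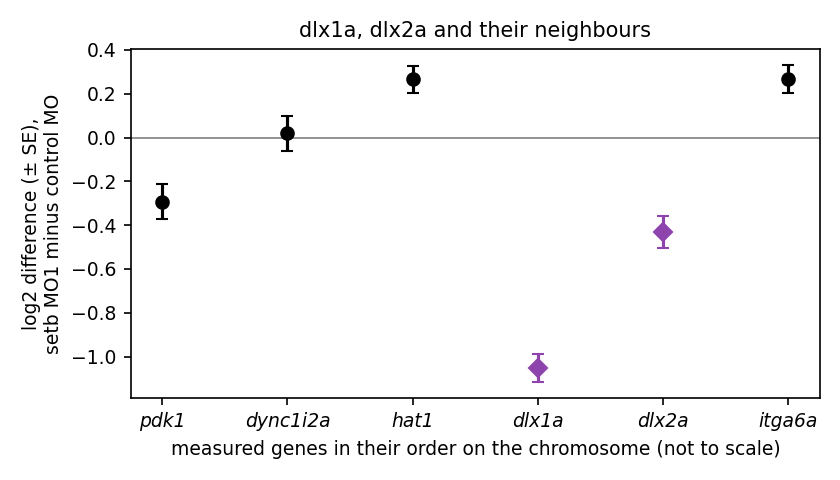
Log2 difference, setb MO1 minus control, with SE (n = 3 and 3) for dlx1a and dlx2a (diamonds) and the measured genes beside them (circles), in their order on the chromosome and not to scale. The dlx pair lies at −1.05 and −0.43 between hat1 and itga6a, both at 0.27.

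Transcription factors listed for forebrain GABAergic neurons and their precursors were mostly lower. Part of them are also active in other cells, so that the counts are not those of GABAergic neurons alone. Of 38 measured, 28 fell, 3 rose and 7 did not pass, 73.7% lower against 20.8% of all genes, with a median difference of −0.57. The smallest p-values belonged to bcl11ba (−1.61 ± 0.09), pbx3b (−1.30 ± 0.08), bcl11bb (−0.89 ± 0.07) and pax6b (−0.96 ± 0.08), each with a limma adjusted p of at most 0.000227. The lowest difference of the list was that of bcl11ab (−1.71 ± 0.27, adjusted p = 0.00213), and npas3 (−1.17 ± 0.10) and npas1 (−1.01 ± 0.15) also fell. These genes and the next 2 were named after their values were seen. The gene lhx6a, of cells from the medial ganglionic eminence, fell by 0.70 ± 0.09 (adjusted p = 0.000876), and gsx1, a progenitor homeobox gene, fell by 0.64 ± 0.14 (adjusted p = 0.00906).

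The proneural gene ascl1a, which acts upstream of Dlx genes in mouse ventral forebrain, fell by 0.39 ± 0.11 (adjusted p = 0.0233). Without setb MO1 replicate 1, 2 or 3 the call on ascl1a was lost (0.0706, 0.0554 and 0.0592). Its duplicate ascl1b, named like ascl1a after its values were seen, fell by 0.58 ± 0.07 (adjusted p = 0.000897). Other genes of the same region, likewise named, did not pass, among them sp9 (−0.17 ± 0.06, adjusted p = 0.0638) and nkx2.1 (−0.0048 ± 0.081, adjusted p = 0.967). The genes that rose were foxp1a (0.45 ± 0.09), sp8a (0.54 ± 0.11), which reached 8.45 in setb MO1 arrays only, and six3b (0.44 ± 0.12). The call on six3b was lost without setb MO1 replicate 3 (0.0640) and without control replicate 2 (0.0641). Among the genes that fell, bcl11ba, npas3, pbx3a and sall3a reached 8.45 in control arrays only. Of the 32 genes that reached 8.45 in both groups, 24 fell (75.0%) and 2 rose. Of all 10096 such genes 18.6% fell and 2290 rose.

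Factors listed for GABAergic neurons outside the forebrain were mostly lower as well, and part of them are likewise active in other cells. Of 35 measured for midbrain, hindbrain, spinal cord and retina, 24 fell, 1 rose and 10 did not pass, 68.6% lower against 20.8% of all genes, with a median difference of −0.57. The LIM homeobox gene lhx1a, of spinal interneurons and horizontal cells, was at 9.28, 9.40 and 9.28 in setb MO1 arrays, against 11.20, 11.18 and 11.05 in control arrays, and fell by 1.82 ± 0.07 (adjusted p = 6.15e-05). The forkhead gene foxn4, of spinal and retinal interneuron precursors, fell by 1.95 ± 0.09 (adjusted p = 6.75e-05). The gene tal2, required for midbrain GABAergic neurons in mouse, was at 7.01, 7.22 and 7.11 in setb MO1 arrays, against 8.73, 8.62 and 8.70 in control arrays, and fell by 1.57 ± 0.08 (adjusted p = 7.52e-05).

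The AP-2 gene tfap2e fell by 0.93 ± 0.06 (adjusted p = 0.000148). The gene that rose was sox21a (0.35 ± 0.10, adjusted p = 0.0235), which did not pass without setb MO1 replicate 2 (0.0760) or 3 (0.0700) or control replicate 2 (0.0713). Without control replicate 1 or 3 the number that rose was 2. Of these 35 genes, 9 reached 8.45 in control arrays only, tal2 among them, and 15 of the other 26 fell (57.7%), against 18.6% of all genes that reached it in both groups, with a median difference of −0.44.

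Markers of interneuron classes were mixed. Of 15 measured, 8 fell, 1 rose and 6 did not pass, 53.3% lower and 6.67% higher against 20.8% and 23.9% of all genes, with a median difference of −0.28. Of the 13 genes that reached 8.45 in both groups 6 fell, 46.2% against 18.6% of all such genes, and the median difference of the 13 was −0.02. The neurexophilin gene nxph1, a marker of migrating interneurons in mouse, fell by 1.12 ± 0.10 (adjusted p = 0.000276), reln, the reelin gene, by 0.49 ± 0.06 (adjusted p = 0.000724) and kcnc3a, a potassium channel gene of fast-spiking neurons, by 0.51 ± 0.07 (adjusted p = 0.00147). The neuronal nitric oxide synthase gene nos1 rose by 0.66 ± 0.13 (adjusted p = 0.00624). Of the 15 genes, 7 are parvalbumin genes, a family that fish muscle also expresses, all named after their values were seen. The genes pvalb3 (−0.52 ± 0.12, adjusted p = 0.0113) and pvalb6 (−0.43 ± 0.10, adjusted p = 0.0113) fell, and pvalb1 (0.07 ± 0.07), pvalb2 (0.11 ± 0.10), pvalb4 (0.22 ± 0.09), pvalb8 (0.0047 ± 0.093) and pvalb9 (0.19 ± 0.09) did not pass. The summed intensity of the 15 genes was 100.6% to 110.1% of the control mean in setb MO1 arrays and 96.8% to 105.7% in control arrays, although their median difference was below 0. Such a sum is carried by the brightest genes, here pvalb1, pvalb2, pvalb4 and pvalb9, with mean log2 levels of 11.67 to 12.91 in control arrays. It therefore says little about the dimmer interneuron markers. Among the genes that fell, the calls on erbb4a (adjusted p = 0.0297) and calb2b (adjusted p = 0.0492), named after their values were seen, were lost in 6 and 5 alternatives. Their adjusted p went up to 0.114 and 0.145. When single arrays were left out, 6 to 7 genes fell, where 1690 to 2317 of all genes did, against 2351 with all arrays. Without setb MO1 replicate 3 or control replicate 1 the number that rose was 2.

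Lower levels were also found for genes listed for neurons with other transmitters. Part of the genes on these lists are likewise active in other cells, so that the counts are not those of these neurons alone. Of 23 measured glutamatergic genes, 15 fell, 3 rose and 5 did not pass, 65.2% lower against 20.8% of all genes, with a median difference of −0.60. Of the 18 that reached 8.45 in both groups 10 fell, 55.6% against 18.6% of all such genes, with a median of −0.48. The vesicular glutamate transporter genes slc17a6a and slc17a6b, named after their values were seen as the counterparts of the gad genes, fell by 0.74 ± 0.09 (adjusted p = 0.000813) and 0.60 ± 0.08 (adjusted p = 0.000891). The gene slc17a6a reached 8.45 in control arrays only. The gene slc17a6b was at 9.56, 9.52 and 9.42 in setb MO1 arrays, against 10.14, 10.17 and 9.99 in control arrays. The smallest p-values on the list belonged to the homeobox genes barhl1b (−0.98 ± 0.07), lhx9 (−1.18 ± 0.08) and barhl2 (−1.22 ± 0.11) and to the NMDA receptor gene grin1a (−0.87 ± 0.07). The genes that rose were atoh1a (0.53 ± 0.13), emx1 (0.32 ± 0.08) and emx3 (0.35 ± 0.11). Without setb MO1 replicate 3 the number that rose was 1, while over all genes it went from 2702 to 2148. The call on emx1 was lost without setb MO1 replicate 3 (0.0510). That on emx3 was lost without setb MO1 replicate 2 (0.101) or 3 (0.105) and without control replicate 1 (0.0724) or 2 (0.123).

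Of 5 glycinergic genes, 3 fell and 2 did not pass, 60.0% lower against 20.8% of all genes. Of these 5, glra1 reached 8.45 in control arrays only, and 2 of the other 4 fell, with a median difference of −0.29. That is 50.0%, against 18.6% of all genes that reached 8.45 in both groups. The glycine transporter gene slc6a5, the marker of these inhibitory neurons, was at 10.29, 10.34 and 10.25 in setb MO1 arrays, against 10.95, 11.07 and 10.88 in control arrays, and fell by 0.67 ± 0.07 (adjusted p = 0.000473). The glycine receptor genes glrbb and glra1 fell by 0.55 ± 0.10 and 0.71 ± 0.13. Of 8 cholinergic and motor neuron genes 6 fell, 75.0% against 20.8% of all genes. Of the 5 that reached 8.45 in both groups 3 fell, 60.0% against 18.6% of all such genes. The smallest p-values were those of olig2 (−0.56 ± 0.07), also on the list of caudal factors, and slc18a3a, the vesicular acetylcholine transporter gene (−0.59 ± 0.11). Of 6 monoaminergic genes 4 fell, 66.7% against 20.8% of all genes. Of these, nr4a2a and tph1b reached 8.45 in control arrays only, which leaves 2 of 4 that fell, 50.0% against 18.6%. The homeobox genes otpb (−1.75 ± 0.12) and otpa (−1.65 ± 0.14) fell the most, nr4a2a by 1.17 ± 0.10 and tph1b by 0.41 ± 0.14 (adjusted p = 0.0460). The call on tph1b, whose groups overlapped, was lost in 6 alternatives, with adjusted p up to 0.132. The tyrosine hydroxylase gene th, named after its values were seen, did not pass (−0.14 ± 0.10, adjusted p = 0.294). Neither did slc6a4a, likewise named (−0.19 ± 0.08, adjusted p = 0.0843). Only the calls on otpa, otpb and nr4a2a stood in each alternative, so that the share rests mainly on these genes.

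Genes of differentiated neurons of any class were lower too. Of 37 measured, 28 fell, none rose and 9 did not pass, 75.7% lower against 20.8% of all genes. Of the 33 that reached 8.45 in both groups 24 fell, 72.7% against 18.6% of all such genes. The list had a median difference of −0.56 and a lowest difference of −1.25, that of stmn1b. In limma 0 of the 37 genes were higher at an unadjusted p under 0.05, and 1 gene rose without setb MO1 replicate 1 or 3 or control replicate 3. Their summed intensity was 66.5% to 69.3% of the control mean in setb MO1 arrays and 97.0% to 103.3% in control arrays. Set beside these 37 genes as a description, gad2 at −1.58 lay under each of them. The differences of dlx1a and gad1b were lower than those of 35, and that of dlx2a was lower than those of 14. Relative to the median of the 37 genes, gad2 differed by −1.02, dlx1a by −0.49, gad1b by −0.30 and dlx2a by 0.13. No weight is put on these positions, since the 4 genes were chosen by their lower levels in this comparison. In addition, gad1b and gad2 reached 8.45 in control arrays only. How much of the low levels of the 4 genes moved with neurons at large was not tested.

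Genes of the pharyngeal arches and the neural crest, where dlx1a and dlx2a are also active, differed in both directions. Of 26 measured, 9 fell, 4 rose and 13 did not pass, 34.6% lower and 15.4% higher against 20.8% and 23.9% of all genes, with a median difference of −0.04. Their summed intensity was 93.4% to 100.4% of the control mean in setb MO1 arrays and 98.0% to 101.4% in control arrays. The arch genes hand2 (−0.05 ± 0.09), prrx1a (0.07 ± 0.08) and twist1a (0.04 ± 0.11), named after their values were seen like sox9a, did not pass. The arch gene barx1 fell (−0.90 ± 0.11). The gene dlx3b, also known from the arches but counted with the other dlx genes, rose (0.27 ± 0.08). That call was lost in 5 alternatives. The homeobox gene gsc (−1.71 ± 0.12) and the cartilage genes sox9b (−0.76 ± 0.06) and sox9a (−0.43 ± 0.07) fell as well. The endothelin receptor gene ednrab (1.03 ± 0.14), msx1b (0.38 ± 0.06), mef2ca (0.47 ± 0.08) and jag1b (0.50 ± 0.09) rose. When single arrays were left out, 5 to 8 genes fell, with 5 without setb MO1 replicate 1 and 5 without setb MO1 replicate 2. Over all genes 1922 and 1854 fell without these arrays, against 2351 with all arrays. The part of arch cells in the levels of dlx1a and dlx2a was not tested.

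**Figure D4:**
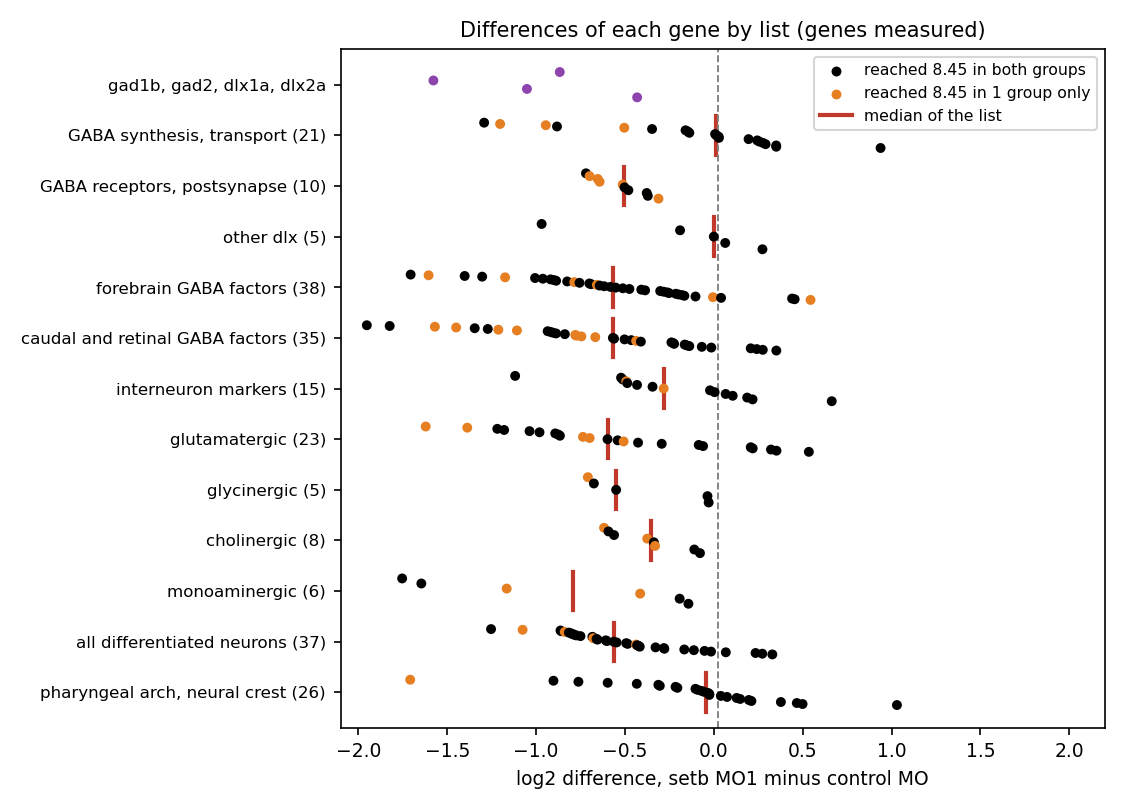
Log2 difference, setb MO1 minus control, of each measured gene by list (number of genes in brackets), with gad1b, gad2, dlx1a and dlx2a in purple in the top line. Below it, black points reached a log2 level of 8.45 in both groups and orange points in 1 group only, red bars are list medians, and the dashed line is the median of all genes (0.02). The list medians run between −0.79 for monoaminergic genes and 0.01 for GABA metabolism. The medians for interneuron markers and glycinergic genes, −0.28 and −0.55 here, are −0.02 and −0.29 over the black points alone.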

How the data were processed

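Total RNA of 6 samples of zebrafish embryos, 3 with setb MO1 and 3 with control morpholino, was measured on Affymetrix arrays. The deposited values are log2 intensities, which the authors made with RMA (named in the submitters' processing notes), a method that corrects background, normalises by quantiles and summarises probes. The sources used here name neither the software version nor the filter that removed probe sets under 8.45. Groups and replicate numbers came from the sample titles.

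The platform annotation gave 1 gene symbol to 11738 of the 15726 probe sets, several to 413 and none to 3575. Of those with 1 symbol, 11497 matched the GRCz12tu gene table by Entrez identifier, and 7 pairs of symbols that differed only in case were joined. The probe set with the highest mean stood for each gene. Limma 3.58.1 in R 4.3.3 (lmFit, eBayes, two-sided) was fitted to all probe sets, and p-values were Benjamini-Hochberg adjusted over 11304 genes at 0.05. On simulated data for setb MO1 against control with 200 of 11304 genes changed, the fit recovered 66% of 1.5-fold and 97% of 2-fold changes, and 3.55% of the calls were false. In the real data 44.7% of genes passed, so that these rates may not hold there.

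The 4 genes and the 12 lists were chosen with earlier results of these data known. Named genes were the 4 genes, other gad and dlx genes, up to 4 genes of smallest p in a list, the genes of a list called in 1 direction if 5 or fewer, and the 3 nearest profiles of each of the 4 genes. Others are said to be named after their values were seen. Alternatives were repeated quantile normalization, equal medians, a filter at the 30th percentile of level, a trended and robust prior, a replicate block, averaging a gene's probe sets and leaving out each array. Counts among genes that reached 8.45 in both groups were added after seeing the data. No batch label is given in the sources used here.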

Additional observations from a re-analysis of the deposited data

How the results depend on the processing

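Over 13 alternatives, 386 values of 30 results were compared, of which 346 stayed within the replicate spread or 1.5 times the count, 40 moved and 0 reversed. Part of the 346 could not have moved. The prior, the replicate block and the averaging of probe sets leave the differences of the 4 genes as they are, and so do the level filters for dlx1a and dlx2a. The differences lay at −0.90 to −0.84 for gad1b, −1.63 to −1.52 for gad2, −1.09 to −1.03 for dlx1a and −0.47 to −0.38 for dlx2a when single arrays were left out. With probe sets under the 30th percentile of level left out, gad1b and gad2 were gone, and genes that fell numbered 2 for GABA metabolism, 2 for receptors, 13 for caudal factors, 4 for interneuron markers, 9 for glutamatergic, 1 for glycinergic, 2 for cholinergic, 2 for monoaminergic and 5 for arch genes, while 2 caudal factors rose. Among genes that reached 8.45 in both groups, a setting chosen after seeing the data, gad1b and gad2 were gone as well, and 2 metabolism, 5 receptor, 15 caudal, 3 cholinergic and 2 monoaminergic genes fell. Fewer genes remain in both settings by construction, and over all genes 1667 and 1876 fell, against 2351 without these filters. The number of genes left in each list at the 30th percentile is not given here, so that those counts cannot be read as shares. With gene values as means of probe sets, 2 caudal and 3 interneuron genes rose, and the cause was not tested. With the replicate number as a block, 0 other dlx genes (dlx3b at a limma adjusted p of 0.0575), 2 caudal factors and 1 pan-neuronal gene rose. The labels do not say whether samples with the same replicate number belong together. The deviations of same-numbered arrays correlated at 0.069, −0.36 and 0.36, which cannot settle it with 3 arrays a group. Leaving out single arrays gave 2 to 6 metabolism genes that rose, 0 to 1 other dlx genes, 0 to 2 caudal factors, 1 to 2 interneuron markers, 1 to 3 glutamatergic genes and 0 to 1 pan-neuronal genes, and 5 to 8 arch genes that fell. Over all genes 1833 to 2697 rose and 1690 to 2317 fell without single arrays, against 2702 and 2351 with all arrays, so that fewer calls are general to these settings. Dim probe sets limit gad1b, gad2 and the receptor genes, whose setb MO1 levels lay near or under 8.45, and no test of signal over background could be made from the values used here.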
